A study of Mus musculus with 6 samples.

Results

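The 8 genes described here encode cytoplasmic intermediate filament proteins: the neurofilament light, medium and heavy chains (Nefl, Nefm and Nefh), alpha-internexin (Ina), peripherin (Prph), vimentin (Vim), nestin (Nes) and glial fibrillary acidic protein (Gfap). They were taken by symbol from a table of 45777 mouse genes, and all 8 were found and all 8 were among the 20354 genes tested. The 6 RNA sequencing libraries came from sensory neurons of the dorsal root ganglia (DRG), grown in culture, of wild-type C57BL/6 mice that the labels give as female and 8 weeks old. The control was PBS (3 libraries), and the treatment was oncomodulin (ONCM, 3 libraries), a calcium-binding protein of the parvalbumin family, given in recombinant form for 12 hours at a concentration of 100 ng/ml. The labels call the samples biological replicates without naming separate cultures or animals, so every p-value here rests on a spread between libraries that may be technical.

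Intermediate filaments are ropes of coiled-coil proteins that give a cell its mechanical strength. In neurons of the peripheral nervous system, Nefl forms the core of the filament with Nefm and Nefh, whose long tails are phosphorylated and project sideways, and Ina and Prph can join the same polymer. The density of neurofilaments is known to set the calibre of large myelinated axons, peripherin is best known from small sensory neurons and from axons after injury, and vimentin, nestin and Gfap are used as markers of glia, progenitors and mesenchymal cells.

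Library totals ran from 53770820 to 64477014 counts, and a floor of 3 counts in a library corresponded to 0.0464 to 0.0558 CPM (reads scaled to library size, with TMM factors). All 18 pan-neuronal markers listed were tested, among them Uchl1 at 2293 ± 67.4 CPM and Tubb3 at 2074 ± 25.3 CPM with PBS (SD, n = 3), and so were all 20 Schwann cell and satellite glia markers, which summed to 5704 ± 69.8 CPM. The cultures thus held RNA of glial markers beside that of neuronal markers. The sex-linked transcripts went against the female label in all 6 libraries, since Y-linked RNA was present in each. Xist, the RNA of the inactive X chromosome, was at 0.485 to 0.588 CPM with PBS and at 413 to 513 CPM with ONCM, and the Y-linked gene Ddx3y was at 58.1 to 62.4 CPM with PBS and at 15.1 to 16.9 CPM with ONCM. The ONCM libraries thus held Xist and Y-linked RNA together. Sex or source of the cells and treatment therefore cannot be told apart for any value below.

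The neurofilament chains were lower with ONCM, alpha-internexin, vimentin and Gfap were higher, and peripherin did not pass the test. By edgeR's quasi-likelihood test 3 of the 8 genes rose, 4 fell and 1 did not pass at an adjusted p under 0.05. Over all tested genes 48.3% passed, 23.9% upward and 24.4% downward, so a high share of calls was common to the table. In the other fits used here the share of all tested genes that passed was 31.8% with DESeq2, 48.2% with RLE size factors, 29.9% with no filter on low counts, 45.5% by limma on log2(TPM + 1), 47.2% with a replicate block and 48.2% without chromosomes X, Y and MT. It was 41.8%, 42.1% and 43.1% without PBS replicates 1, 2 and 3 and 43.3%, 42.7% and 45.7% without ONCM replicates 1, 2 and 3. The groups did not overlap for 7 of the 8 genes, against 55.6% of all tested genes. The median log2 fold change (ONCM minus PBS) was -0.08 over the 8 genes and -0.002 over all tested genes.

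**Figure D1:**
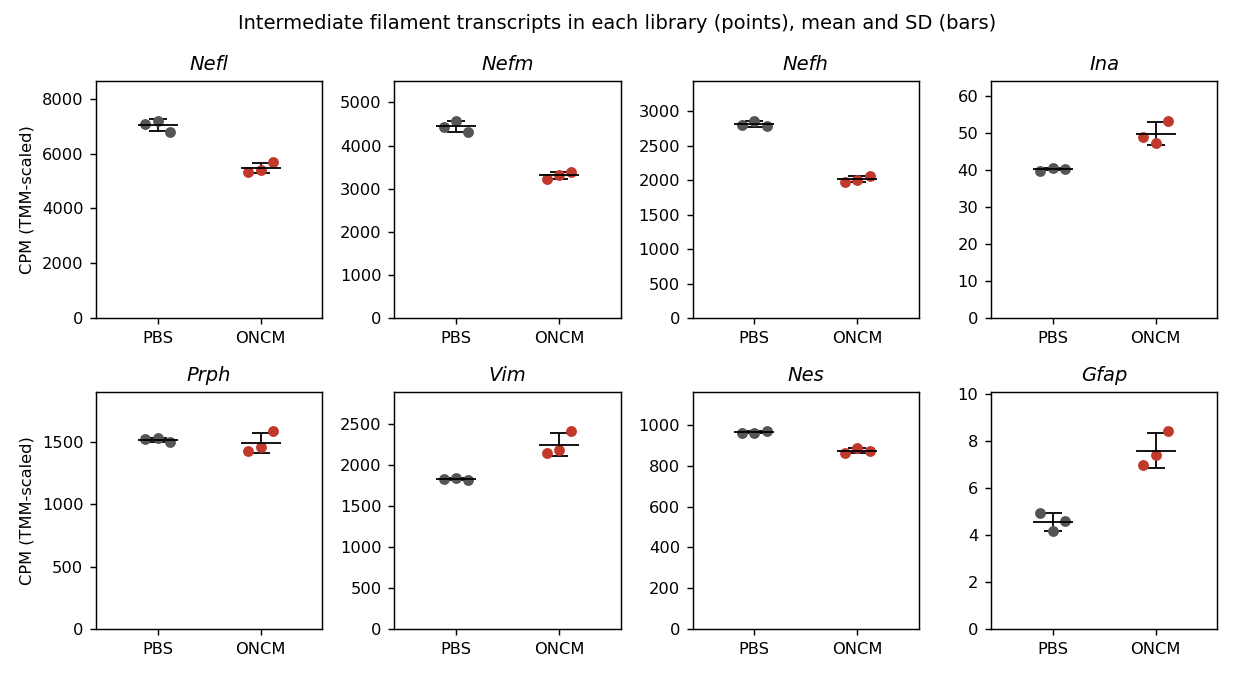
Each panel plots TMM-scaled CPM (vertical axis, from 0) of 1 gene for the 3 PBS and 3 ONCM libraries, with points for libraries and bars for mean and SD. The ONCM points of Nefl, Nefm, Nefh and Nes lie below the PBS points, those of Ina, Vim and Gfap lie above, and those of Prph span the PBS points.

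Nefl, the light chain on which the other chains assemble (chromosome 14, 68083863 to 68089095, GRCm38.p6, the assembly called mm10), was the most abundant member. Its PBS libraries held 7089, 7203 and 6784 CPM, and its ONCM libraries 5314, 5406 and 5687 CPM. The lowest PBS library lay above the highest ONCM library. The level with ONCM was 77.8% of that with PBS, or -0.36 as a log2 fold change (SE 0.029; adjusted p by edgeR 5.99e-09). Of all tested genes, 17% had a lower log2 fold change. These are bulk cultures, in which fewer cells of a type and less RNA per cell cannot be told apart.

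Nefm, the medium chain, lies on the same chromosome (68119545 to 68125004), with 30449 bases between the RefSeq spans of Nefl and Nefm. Its CPM was 4428, 4578 and 4323 with PBS and 3221, 3314 and 3385 with ONCM. Both groups were narrow and well apart, and the level with ONCM was 74.4% of that with PBS (log2 fold change -0.43, SE 0.027, edgeR adjusted p = 2.49e-10). In the GENCODE M21 annotation 1 long Nefm transcript, on the minus strand from 68082590 to 68124846, spans the whole of Nefl, which is on the plus strand. The strand setting of the counting is not given in the sources used here, and the non-coding gene A230070E04Rik also overlaps Nefm by 1253 bases at a mean of only 5.55 CPM.

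Nefh, the heavy chain and the antigen behind the NF200 stain of large sensory neurons (chromosome 11, 4938754 to 4948064), had the lowest log2 fold change of the 8. The PBS values were 2793, 2863 and 2782 CPM, and all ONCM values, 1976, 2005 and 2057 CPM, lay lower. The ONCM libraries averaged 71.6% of the PBS level, or -0.48 as a log2 fold change (SE 0.025; adjusted p by edgeR 1.47e-11), and 11.7% of tested genes had a lower one. The neighbouring gene Ap1b1, which overlaps Nefh by 745 bases, had a log2 fold change of -0.16 that passed (edgeR adjusted p = 0.000352). Gm35321 overlaps Nefh by 4484 bases and averaged only 0.535 CPM. Its log2 fold change of 0.46 did not pass (edgeR adjusted p = 0.216).

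Ina encodes alpha-internexin, a filament protein of developing and central neurons (chromosome 19, 47014681 to 47025327), and it went the other way. Its CPM was 39.95, 40.56 and 40.3 with PBS and 49.07, 47.34 and 53.47 with ONCM. Every ONCM library was above every PBS library, and the rise was 1.24-fold (log2 fold change 0.31, SE 0.05, edgeR adjusted p = 1.63e-05). The gene Nt5c2 overlaps Ina by 494 bases and was counted at a similar mean of 41.3 CPM, with a log2 fold change of 0.10 that did not pass (edgeR adjusted p = 0.0636).

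Prph, peripherin (chromosome 15, 99053579 to 99058978), was the 1 member that did not pass. The PBS values were 1521, 1529 and 1497 CPM, and the ONCM values 1430, 1457 and 1585 CPM. ONCM replicate 3 was above all PBS libraries and ONCM replicates 1 and 2 were below them, so the groups overlapped. The log2 fold change was -0.02, with a 95% interval of -0.09 to 0.05 (edgeR adjusted p = 0.586). With ONCM replicate 3 left out, Prph fell (-0.07, edgeR adjusted p = 0.00842). On log2(TPM + 1) it was at -0.09, just past the threshold (adjusted p by limma 0.0496), on a scale where the median of all tested genes was -0.04.

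Vim, vimentin, is the filament of fibroblasts, endothelial cells and Schwann cells and is also found in growing neurites (chromosome 2, 13574311 to 13582826). Its CPM was 1829, 1848 and 1816 with PBS and 2148, 2191 and 2414 with ONCM. The PBS libraries were nearly level and all ONCM libraries were above them, a rise of 1.23-fold (log2 fold change 0.30, SE 0.035, edgeR adjusted p = 2.29e-06). Nes, nestin, a filament protein of progenitors and of Schwann cells that assembles with vimentin (chromosome 3, 87971093 to 87980451), moved in the opposite direction. The PBS values were 963.5, 962.4 and 970.6 CPM, and the ONCM values 866.0, 889.2 and 872.7 CPM. This was a small fall to 90.7% of the PBS level, larger than the spread of either group (log2 fold change -0.14, SE 0.025, edgeR adjusted p = 0.000128).

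Gfap, the filament of astrocytes that non-myelinating Schwann cells and activated satellite glia also make (chromosome 11, 102887336 to 102897200), was by far the scarcest member, with 233 to 469 reads in a library. Its CPM was 4.93, 4.17 and 4.57 with PBS and 6.95, 7.38 and 8.40 with ONCM. The groups were apart, with a rise of 1.66-fold (log2 fold change 0.73, SE 0.10, edgeR adjusted p = 6.33e-06), and 90.5% of tested genes had a lower log2 fold change. Among markers listed for central astrocytes Gjb6 was too low to test, and Aqp4 averaged 2.23 ± 0.362 CPM (PBS) and 1.18 ± 0.0749 CPM (ONCM). Aldh1l1, a folate enzyme used as an astrocyte marker, rose from 7.52 ± 0.493 to 36.7 ± 0.0877 CPM, while Gja1 and Aqp4 fell, Gja1 narrowly (edgeR adjusted p = 0.0398, and 0.135 without ONCM replicate 3). Gja1 also lost its call with DESeq2 (adjusted p 0.106), with RLE size factors and with a replicate block (edgeR adjusted p = 0.0521 and 0.0539). It did so too without PBS replicate 1, 2 or 3 and without ONCM replicate 1 (edgeR adjusted p = 0.0669, 0.0545, 0.113 and 0.0802). Of the 5 tested markers of this list 1 rose, 2 fell and 2 did not pass, the last being Slc1a2 (log2 fold change -0.23) and Fgfr3 (-0.15). Over all tested genes 23.9% rose and 24.4% fell. The summed level of the list was 72.01 to 75.96 CPM with PBS and 93.9 to 100.0 CPM with ONCM. That higher sum rests on Aldh1l1, since every other tested marker had a log2 fold change below 0. The part of the list in the Gfap result was not tested.

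Promoter windows are shown for 3 members that behaved differently, Ina and Vim, which rose, and Prph, which did not pass. The RefSeq promoter table (GRCm38.p6) matched 5 of the 8 genes, and Nefl, Nefm and Nefh were not matched. Each line gives the 250 bases before the table's start site, 5′ to 3′ on the gene's strand, with capitals for matches to TATAAA (the TATA box) or GGGCGG (the GC box), searched on both strands. The windows are chr2:13574061-13574310, chr15:99054924-99055173 and chr19:47014431-47014680, all on the plus strand. The Prph start site lies inside the gene span given above.
Vim: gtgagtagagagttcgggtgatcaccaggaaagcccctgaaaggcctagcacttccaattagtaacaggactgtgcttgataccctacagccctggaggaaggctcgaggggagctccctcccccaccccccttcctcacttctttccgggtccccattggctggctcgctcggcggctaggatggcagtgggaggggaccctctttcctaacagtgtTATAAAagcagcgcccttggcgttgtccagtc
Prph: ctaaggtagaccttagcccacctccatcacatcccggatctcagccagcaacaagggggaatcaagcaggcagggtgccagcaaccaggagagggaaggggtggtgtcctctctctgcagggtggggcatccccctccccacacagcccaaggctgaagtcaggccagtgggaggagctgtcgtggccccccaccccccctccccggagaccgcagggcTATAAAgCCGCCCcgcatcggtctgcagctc
Ina: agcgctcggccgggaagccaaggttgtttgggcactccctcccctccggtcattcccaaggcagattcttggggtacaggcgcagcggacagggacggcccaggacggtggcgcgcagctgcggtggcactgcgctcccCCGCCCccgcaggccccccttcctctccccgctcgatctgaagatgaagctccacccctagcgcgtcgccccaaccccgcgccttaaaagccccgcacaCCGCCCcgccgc
The TATAAA of Vim began 32 bases before the start and that of Prph 31 bases before it, while Ina had none. Of 32851 promoter windows of the same length, 12.4% held TATAAA. The GC box stood once in reverse in the Prph window, 24 bases before the start, and in reverse at 111 and 12 bases before the start of Ina, and 32.7% of all windows held it. Nes had GGGCGG in reverse at 73 and 62 bases before its start, and Gfap matched neither motif. None of the 5 windows held TTCNNNGAA, the core of a STAT site, which 7.02% of all windows held. These are letter matches in short windows and show nothing of binding.

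Levels can be compared between genes only per length, for which the deposited TPM values were used. Nefl stood at 5274 ± 191 TPM with PBS (SD, n = 3 here and below), Nefm at 3490 ± 113, Vim at 2533 ± 33.9, Prph at 1938 ± 38.8, Nefh at 1787 ± 31.4, Nes at 399.8 ± 2.07, Ina at 31.4 ± 0.212 and Gfap at 4.25 ± 0.388. Neighbours in this order lay further apart than their SDs. With ONCM, Nefl was at 3933 ± 96.4 TPM, Vim at 2983 ± 153, Nefm at 2489 ± 47.0, Prph at 1824 ± 81.0, Nefh at 1225 ± 14.6, Nes at 347.6 ± 7.87, Ina at 37.3 ± 1.87 and Gfap at 6.79 ± 0.6, so that vimentin stood below Nefm with PBS and above it with ONCM. Nefl ranked between 6 and 16 among all genes of a library by TPM, and Prph between 41 and 47. The neurofilament triplet, Nefl with Nefm and Nefh, took 1.40% to 1.47% of all counts with PBS and 1.05% to 1.10% with ONCM.

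Summed over the triplet, the PBS libraries held 10660, 10810 and 10180 TPM, and the ONCM libraries 7482, 7680 and 7777 TPM. The ONCM mean was 0.725 times the PBS mean, and the groups did not overlap (exact permutation test, two-sided, p = 0.1, the smallest that 3 against 3 samples allow). Over all 8 genes the sum went from 15460 ± 403 to 12840 ± 374 TPM. Vimentin took 16.4% ± 0.214 of that sum with PBS and 23.2% ± 0.538 with ONCM.

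**Figure D2:**
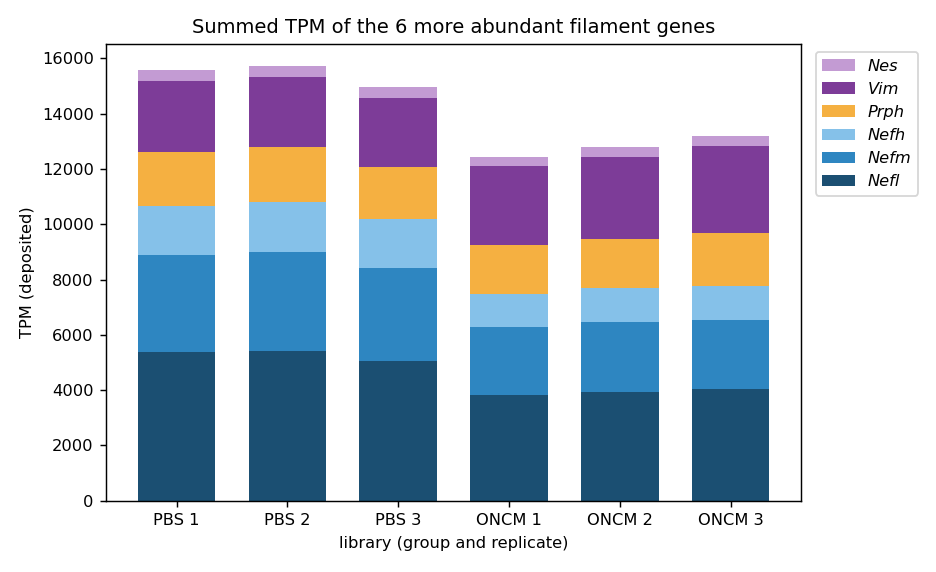
Stacked bars give deposited TPM (vertical axis) of Nefl, Nefm, Nefh, Prph, Vim and Nes in each of the 6 libraries. The Nefl, Nefm and Nefh layers are thinner in the 3 ONCM bars, where the triplet sums to at most 7777 TPM against at least 10180 TPM with PBS, and the Vim layer is thicker.

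The proportions among the chains moved less than their levels. Per Nefl transcript there were 0.654, 0.665 and 0.667 Nefm transcripts with PBS and 0.634, 0.642 and 0.623 with ONCM. The same ratio for Nefh was 0.333, 0.336 and 0.347 with PBS and 0.315, 0.314 and 0.306 with ONCM. Both ratios were lower in every ONCM library, by 0.06 and 0.12 on the log2 scale, and Nefl made up 49.98% ± 0.334 of the triplet with PBS and 51.4% ± 0.364 with ONCM. Peripherin per Nefl went from 0.368 ± 0.00609 to 0.464 ± 0.00962, and vimentin per Nefl from 0.481 ± 0.0112 to 0.758 ± 0.021. The log2 ratio of Ina to Nefl was 0.67 higher with ONCM. Within the glial and mesenchymal filaments, nestin per vimentin went from 0.158 ± 0.00204 to 0.117 ± 0.00743, and the log2 ratio of Gfap to Vim was 0.44 higher. For each of the 7 ratios compared the groups did not overlap, and the exact two-sided permutation test gave p = 0.1, which is 0.1 after Benjamini-Hochberg adjustment over the 7 and the smallest the design allows.

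The scale against which neuronal transcripts are read changes part of this picture. Counts for the 18 pan-neuronal markers, once summed, went from 11870 ± 87.8 to 14630 ± 346 CPM without overlap. The genes with the largest gains in CPM in that sum were Tubb3 (log2 fold change 0.80), Stmn2 (0.79) and Uchl1 (0.24). Gap43 had the largest log2 fold change of the list, 1.485, from 185.9 ± 3.51 to 520.4 ± 18.5 CPM. Within the list 6 genes rose, 8 fell and 4 did not pass, against 23.9% of all tested genes that rose and 24.4% that fell. Measured against that sum, the log2 levels of Nefl, Nefm and Nefh were 0.66, 0.73 and 0.78 lower with ONCM, with no overlap between the groups. Scaling the libraries to the same sum moved the median of all tested genes by -0.30, and 66.9% of genes then passed, 9.65% upward and 57.2% downward. On that scale Vim and Ina did not pass, at log2 fold changes of -0.004 and 0.01 (edgeR adjusted p = 0.897 and 0.87), Prph was at -0.33 (edgeR adjusted p = 1.21e-08) and Gfap at 0.43. Against the geometric mean of the 18 genes, which weights them equally, the log2 levels of Nefl, Nefm and Nefh were lower by a smaller amount, at differences of -0.33, -0.395 and -0.452. Vim, Ina and Gfap were 0.327, 0.34 and 0.76 higher on that measure, Nes was at -0.109 and Prph at 0.006. On log2(TPM + 1) all 8 genes passed by limma, 3 upward and 5 downward, against 17.8% and 27.7% of all tested genes.

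**Figure D3:**
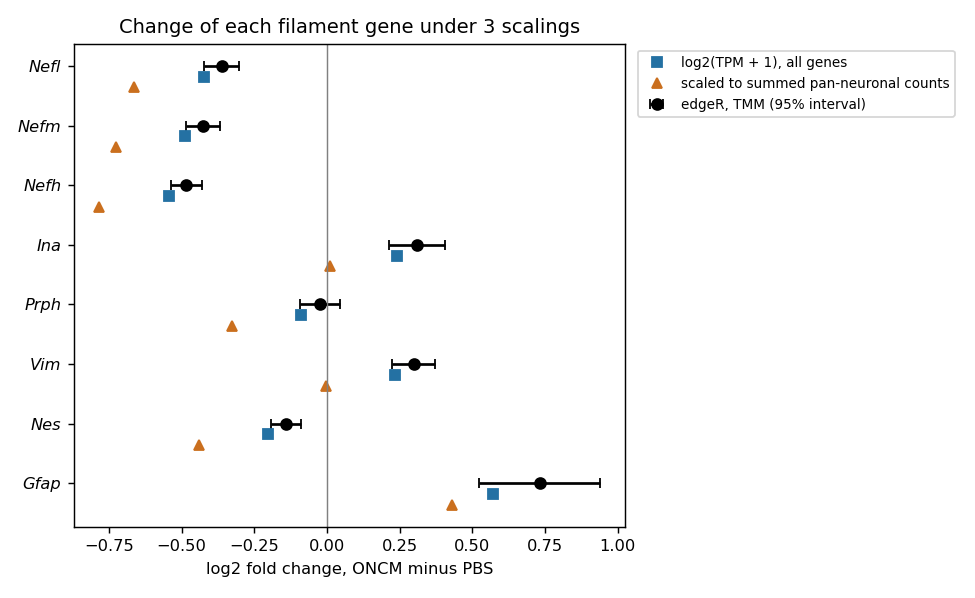
Points give the log2 fold change (horizontal axis, ONCM minus PBS) of each gene by edgeR with TMM scaling and its 95% interval, by limma on log2(TPM + 1), and by edgeR scaled to the summed pan-neuronal counts. Nefl, Nefm, Nefh and Nes lie below 0 and Gfap above 0 on all 3 scales, while Vim and Ina lie at about 0 on the pan-neuronal scale.

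Markers of the cells that make these filaments were read beside them. Among all tested genes 23.9% rose and 24.4% fell. Of 15 markers of large-diameter sensory neurons, the class rich in Nefh, 13 fell, 0 rose and 2 did not pass, and their summed CPM was 2552 to 2686 with PBS and 1693 to 1830 with ONCM. Kcna2, a potassium channel, and Scn1a, a sodium channel, were among those that fell, with log2 fold changes of -1.16 and -0.87. Of 15 markers of small-diameter neurons, the class known for Prph, 14 fell and 1, P2rx3, rose, and the sum was 3778 to 3857 CPM with PBS and 2344 to 2348 CPM with ONCM. Prph did not pass beside that fall. The median log2 fold change was -0.57 in the large-diameter list and -0.84 in the small-diameter list. None of the markers in either list was at 0 in all libraries, and their part in the filament results was not tested.

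The counts here stand beside 23.9% of all tested genes that rose and 24.4% that fell. Of the 20 Schwann cell and satellite glia markers 7 rose, 2 fell and 11 did not pass. Their summed CPM was 5642 to 5780 with PBS and 5891 to 6188 with ONCM. Sox10, the transcription factor that defines these glia, did not pass (200 ± 4.38 and 205 ± 8.39 CPM). Measured against the sum of this list, log2 levels of Vim and Gfap were still higher with ONCM, by 0.22 and 0.66, and that of Nes was 0.21 lower, each without overlap between the groups (exact two-sided permutation p = 0.1, and p = 0.122 after Benjamini-Hochberg adjustment over 11 such ratios). Fibroblast markers, which share cells with vimentin, rose in 6 of 10 cases with 4 not passing, and summed to 307 to 313 CPM with PBS and 445 to 466 CPM with ONCM. All 10 macrophage markers rose, from a sum of 38.3 to 41.8 CPM with PBS to 117 to 122 CPM with ONCM, and Adgre1, which defines macrophages, was at 1.72 ± 0.338 and 7.80 ± 0.323 CPM. Of 11 endothelial and mural markers 5 rose, 3 fell and 3 did not pass, with sums of 285 to 288 and 278 to 286 CPM. Pecam1, Cdh5, Kdr, Eng and Emcn rose by 1.14-fold to 1.35-fold, while Rgs5, Cspg4 and Pdgfrb fell. Rgs5 went from 77.1 ± 0.284 to 48.8 ± 0.392 CPM, so the sum covers moves in opposite directions. Of 12 repair Schwann cell markers, of which Olig1 was too low to test, 7 rose and 3 fell. Of the 10 proliferation genes, of which Aurkb was too low to test, 1 rose and 2 fell. The proliferation gene that rose, Top2a, had 18 to 55 reads in a library, and of those that fell Bub1 had 19 to 65. With DESeq2, and without PBS replicate 2 or ONCM replicate 2, 0 proliferation genes rose and 1 fell. These directions are those of TMM scaling. Scaled to the summed pan-neuronal counts, 1 Schwann cell and satellite glia marker rose and 17 fell. Of the other lists on that scale, fibroblast markers held 3 that rose and 2 that fell. Endothelial and mural markers held 1 and 5, repair Schwann cell markers 4 and 6, and proliferation genes 0 and 3. All 10 macrophage markers still rose. On log2(TPM + 1) by limma, 7 Schwann cell and satellite glia markers rose and 5 fell. The part of these lists in the vimentin, nestin and Gfap results was not tested.

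Proteins that build, modify, carry and remove filaments were taken from 8 lists of 74 genes, of which 68 were tested. Of these 21 rose, 21 fell and 26 did not pass, so 61.8% passed against 48.3% of all tested genes, and their median log2 fold change was -0.03. Scaled to the summed pan-neuronal counts, 3 of the 68 rose and 49 fell, and on log2(TPM + 1) 12 rose and 27 fell, so the directions given for partners below are those of TMM scaling. In a list of 22 other intermediate filament genes, 16 were tested, of which 7 rose, 4 fell and 5 did not pass, and the median was -0.06. With a replicate block 4 rose, and without PBS replicate 3 the number was 5. Among the 7, the lamin genes Lmnb1 and Lmnb2 and the keratin gene Krt8 passed narrowly (edgeR adjusted p = 0.0477, 0.0415 and 0.0405) and lost their calls in 10, 9 and 7 of 12 other settings. Synm, synemin, a large partner of vimentin and desmin, fell from 343 ± 2.95 to 266 ± 6.06 CPM, and Krt222, a keratin-like gene, fell from 36.2 ± 0.872 to 24.0 ± 0.778 CPM. Iffo2, a gene with a filament domain, rose 1.32-fold to 43.4 ± 0.556 CPM. The nuclear lamin gene Lmna rose 1.18-fold from 330 ± 6.49 to 389 ± 24.9 CPM, and the epithelial keratin gene Krt19 rose 5.40-fold from 19, 8 and 14 reads with PBS to 67, 68 and 76 reads with ONCM. Lmna, Krt19, Lmnb1, Lmnb2 and Krt8, and below Gsk3a, Cdk5, Dync1h1, Tardbp and Lifr, Nfix, Nfib and Socs3, were chosen after their values were seen, as were the single marker genes named above. Krt5, Krt14, Krt17, Krt18, Krt20 and Krt23 were too low to test.

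Counts of kinases and motors stand beside 23.9% of all tested genes that rose and 24.4% that fell. The kinases and phosphatases that act on the tails of Nefm and Nefh numbered 2 that rose, 6 that fell and 6 that did not pass of 14. Of those that rose, Gsk3a lost its call in 6 of 12 other settings, among them those without PBS replicate 1, 2 or 3 and without ONCM replicate 3. Mapk10, the neuronal Jun kinase, fell from 329 ± 6.33 to 237 ± 3.71 CPM, Mapk9, a second Jun kinase, from 264 ± 3.64 to 210 ± 4.2 CPM, and Cdk5r2, an activator of the tail kinase Cdk5, from 115 ± 4.11 to 72.5 ± 5.9 CPM. Cdk5 itself had a log2 fold change of -0.05 that did not pass (edgeR adjusted p = 0.373). Of 8 motor genes that carry neurofilaments along the axon 5 fell, 1 rose and 2 did not pass, with a median of -0.17. The kinesin heavy chain genes Kif5a, Kif5b and Kif5c fell by 0.20, 0.33 and 0.26 on the log2 scale, and Dync1h1, the heavy chain of the dynein that runs the other way, rose by 0.15.

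Counts in the next lists stand beside 48.3% of all tested genes that passed, 23.9% upward and 24.4% downward. The plakins, which tie filaments to actin and microtubules, numbered 7, of which 2 rose, 1 fell and 4 did not pass. Macf1 rose 1.18-fold to 234 ± 20.9 CPM, and Evpl and Dsp, of epithelial junctions, were at 2.49 ± 0.143 CPM after a fall and 1.38 ± 0.115 CPM after a rise. Among 6 turnover genes Trim2, a ubiquitin ligase for Nefl, and Cast, the inhibitor of the calpains that cut neurofilaments, fell by 0.14 and 0.15 on the log2 scale, Stub1 rose by 0.11 and 3 did not pass. Of 5 chaperones Hspb1, a small heat shock protein linked to inherited motor neuropathy, rose 1.31-fold to 404 ± 19.7 CPM, Hspa8 fell by 0.12 on the log2 scale, and 3 did not pass. Among proteins that bind neurofilament mRNA, Arhgef28 rose 1.19-fold to 26.9 ± 1.15 CPM, and Tardbp had a log2 fold change of -0.02 that did not pass. The calls for Dsp and Stub1 were lost in 2 and 6 of 12 other settings, for Stub1 among them those without PBS replicate 1, 2 or 3 and without ONCM replicate 3, and that for Dync1h1 in 1 (log2(TPM + 1), 0.084, adjusted p by limma 0.174).

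Known regulators of Gfap were also divided, beside 23.9% of all tested genes that rose and 24.4% that fell. Of 9 regulators 5 rose, 2 fell and 2 did not pass, with a median of 0.09. Without PBS replicate 3 or ONCM replicate 1 the number that rose was 3, and on log2(TPM + 1) it was 2. With DESeq2, and without PBS replicate 1 or ONCM replicate 3, only 1 fell. Lifr, Nfib, Nfix and Socs3 lost their calls in 7, 4, 3 and 1 of 12 other settings, and Sox9, Stat3 and Nfia in 0. Sox9, a glial transcription factor, rose 2.13-fold from 5.43 ± 0.835 to 11.5 ± 0.292 CPM, and Stat3, which acts on the Gfap gene in astrocytes, rose from 453 ± 5.07 to 577.5 ± 9.18 CPM. Nfia, a nuclear factor of gliogenesis, fell from 34.0 ± 1.09 to 20.6 ± 1.61 CPM.

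**Figure D4:**
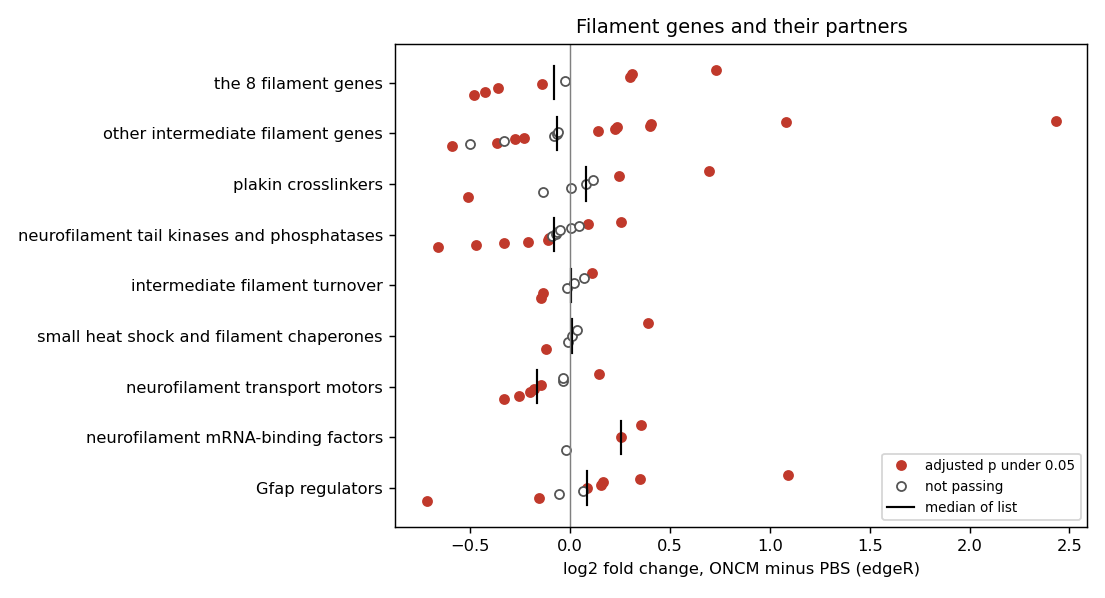
Each point is 1 tested gene placed by its log2 fold change (horizontal axis, ONCM minus PBS, edgeR) in the row of its list, filled where the adjusted p was under 0.05 and open where it was not, with a bar at the list's median. The 8 filament genes spread on both sides of 0, the motor genes lie mostly below 0 with a median of -0.17, and the far right point in the row of other filament genes is Krt19.

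Genes with the most similar course were sought among 9734 genes with a mean of at least 10 CPM, leaving out placeholder symbols such as Gm numbers and Rik names. The measure was the root mean square difference of centred log2 CPM over the 6 libraries, which mainly follows the difference between groups. Nearest to Nefl were Olfm1 (difference 0.00822) and Clstn1 (0.0114), and nearest to Nefm were Snph (0.0124) and Cdh1 (0.0131). Aqp1 (0.00593) and Ccpg1 (0.0144) were nearest to Nefh, and Aqp1 averaged 160.5 ± 2.37 CPM (PBS) and 115 ± 2.44 CPM (ONCM). Ina lay near Ctbp2 (0.0175), and Vim lay nearest to Por (0.0126) and Dgat2 (0.0173). Nes lay nearest to Ddx59 (0.00979), which itself did not pass (edgeR adjusted p = 0.112), and Scd2 (0.00994). Prph lay nearest to Dohh (0.00609) and Unc119b (0.014). The nearest genes to Gfap were farther off, Cebpd at 0.066 and Rnf19b at 0.0738. Gfap itself averaged 4.56 CPM with PBS and 7.58 CPM with ONCM, below the 10 CPM asked of candidates. The part of counting noise in its larger distances was not tested.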

How the data were processed

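The data were gene-level values for 6 RNA sequencing libraries of DRG neuron cultures, 3 with PBS and 3 with ONCM. The authors deposited 1 table with raw read counts, FPKM and TPM per gene. Per the submitters' processing notes the build is mm10, while the aligner, counter, annotation and strandedness were "not given in the sources used here". Deposited counts were used for tests, deposited TPM for levels between genes, and deposited FPKM was not used.

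Counts were filtered by filterByExpr, scaled by TMM and tested in edgeR 4.0.16 (R 4.3.3) by quasi-likelihood F-tests (robust glmQLFit), with Benjamini-Hochberg adjustment over 20354 genes and a threshold of 0.05. The SE is the log2 fold change divided by the square root of F. Floors cover counting error only, since no molecular identifiers tie reads to molecules. Alternatives used DESeq2 1.42.0, limma 3.58.1 on log2(TPM + 1), other scalings and filters, a replicate block and each library left out. On simulated counts for this comparison (19979 genes tested, 50 changed per fold), 66% of 1.25-fold and 88% of 1.5-fold changes were recovered, with 21 false calls. Far fewer genes were changed in the simulation than the 9829 that passed in the data, so these rates may not carry over. Replicates of a group differed by more than sampling noise (chi-square per degree of freedom 2.76 to 7.09, genes with at least 20 counts), so all 6 were kept. Coordinates are RefSeq's, GRCm38.p6, matched by Entrez number for 45679 of 45777 genes.

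The members and lists were chosen with earlier results of these data known. Named genes are the 8 members, up to 3 passing genes per partner list by smallest p, the 2 nearest patterns per member, and marker genes a result turns on; a few of these are not reported here.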

Additional observations from a re-analysis of the deposited data

How the results depend on the processing

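Nefl, Nefm, Nefh, Nes and Gfap kept direction and call in all 13 alternatives run for them, with log2 fold changes of -0.66 to -0.34, -0.73 to -0.41, -0.78 to -0.47, -0.44 to -0.13 and 0.43 to 0.79. Scaled to summed pan-neuronal counts, 1 member in place of 3 passed upward, Ina stood at 0.01, and Vim reversed to -0.004. Prph ran from -0.071 to 0.005 without 1 library at a time. Relative to the pan-neuronal list, Prph was at 0.006 and Vim at 0.327 with the geometric mean. Without 1 library at a time, Vim against that list ran from -0.037 to 0.016 and Ina from -0.022 to 0.038. For these the cause was not tested. All 49 values of the 7 ratios between members kept their direction, at the smallest p each design allows. Of 42 partner calls, 30 held in all 12 alternatives other than pan-neuronal scaling and 12 were lost in at least 1, while with that scaling 3 partners rose and 49 fell. Against the geometric mean of the pan-neuronal list, Nefl, Nefm and Nefh were at -0.33, -0.395 and -0.452. Same-numbered samples did not deviate together (correlations -0.0453 to 0.00167), and with the replicate block 9597 genes, the same number of members (7) and 40 partner genes passed. Gfap rests on 233 to 469 reads a library, so its interval (0.52 to 0.94) is the widest of the members.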
